A study of Capra hircus with 2 samples.

Results

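The miR-183, miR-96 and miR-182 cluster is a group of 3 microRNAs that are made from neighbouring genes and that have closely related sequences. They were followed in small RNA from the mammary gland of dairy goats (Capra hircus). Their tags were found in the 2 deposited libraries by sequence: tags of at least 18 nt that began at base 1, 2 or 3 of the mature miRNA, matched it without mismatch, and ran at most 3 nt past its end. All 3 members were found in both libraries. For comparison, the 2 libraries together held 957 families of tags of 20 to 24 nt that reached 10 TPM (tags per 1000000 clean tags), a level that miR-183 and miR-182 passed and miR-96 did not. The members come from the 5' arm of their precursors.

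The first library represents early lactation, day 10 after parturition. The second represents early involution, day 5 after forced weaning at late lactation and day 218 after parturition. RNA of 5 goats was mixed in equal parts at each stage, per the series design, which does not say whether they were the same animals. Each group is therefore 1 pooled library with no replicate, and the spread between goats was not measured. Weaning and the longer time since parturition cannot be told apart. The labels name no breed, age or further treatment. The libraries held 18031615 clean tags in lactation and 7385833 in involution. Intervals are 95% intervals for counting error alone, and since PCR copies carry no molecular identifiers they are not intervals for independent molecules.

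A mature miRNA guides Argonaute to mRNAs that pair with its seed, bases 2 to 8 from its 5' end, so members that differ in the seed differ in their predicted targets. The miR-183 cluster is best known from sensory cells, where it is needed for hair cells and photoreceptors, and miR-96 is a human deafness gene. It is also expressed in many epithelia and is often raised in breast carcinoma, and miR-96 and miR-182 are known repressors of the transcription factors FOXO1 and FOXO3. RefSeq places the goat genes on 1 chromosome of assembly ARS1.2 in the order MIR183, MIR96, MIR182, within 10 kb, and 0 other listed genes overlap that span. The files name no genome build, so no coordinates are given.

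The sequences are shown because the results turn on where a tag begins and ends. Each was read from the tag files as the most abundant tag with the known first base, seed and length of that miRNA, and the seed is in capitals.
miR-183: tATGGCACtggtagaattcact
miR-96: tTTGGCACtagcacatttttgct
miR-182: tTTGGCAAtggtagaactcacact

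The 3 seeds differ by 1 or 2 bases, counted from 1 at the 5' end. Between miR-96 and miR-182, 6 of the 7 seed bases were equal and the difference was C8A, from miR-96 to miR-182. Between miR-183 and miR-96, 6 of 7 were equal as well and the difference was A2T. The pair miR-183 and miR-182 differed at both of these seed bases, A2T and C8A, yet along the 22 positions compared 18 were equal, the other differences being T17C and T22A. Over the whole length, seed included, miR-96 is the odd member: 13 of 22 positions equalled miR-183 and 12 of 23 equalled miR-182.

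Of the 3, miR-182 was by far the most abundant and miR-96 was close to the limit of counting. The level of miR-182 was 585 TPM in lactation (574 to 596, 10542 tags) and 383 TPM in involution (369 to 397, 2826 tags). That of miR-183 was 197 TPM in lactation (191 to 204, 3554 tags) and 107 TPM in involution (99.9 to 115, 792 tags). Both were higher in the lactation library, and for neither did the counting intervals of the libraries overlap.

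The level of miR-96 was 3.66 TPM in lactation (2.83 to 4.66, 66 tags) and 4.33 TPM in involution (2.96 to 6.12, 32 tags). These intervals overlap, so over all its tags no difference in miR-96 was detectable at this depth. The mature form alone, with 20 and 18 tags, had a ratio of 2.20 (1.10 to 4.37). A count of 0 would have allowed up to 0.166 TPM in lactation and 0.406 TPM in involution, so miR-96 was present in both. Summed, the cluster stood at 785 TPM in lactation and 494 TPM in involution. The order miR-182, miR-183, miR-96 was the same at both stages. The mature miRNAs are of nearly equal length, so no correction for length was made, but adaptor ligation and PCR can favour some sequences, and their part in the order was not tested.

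**Figure D1:**
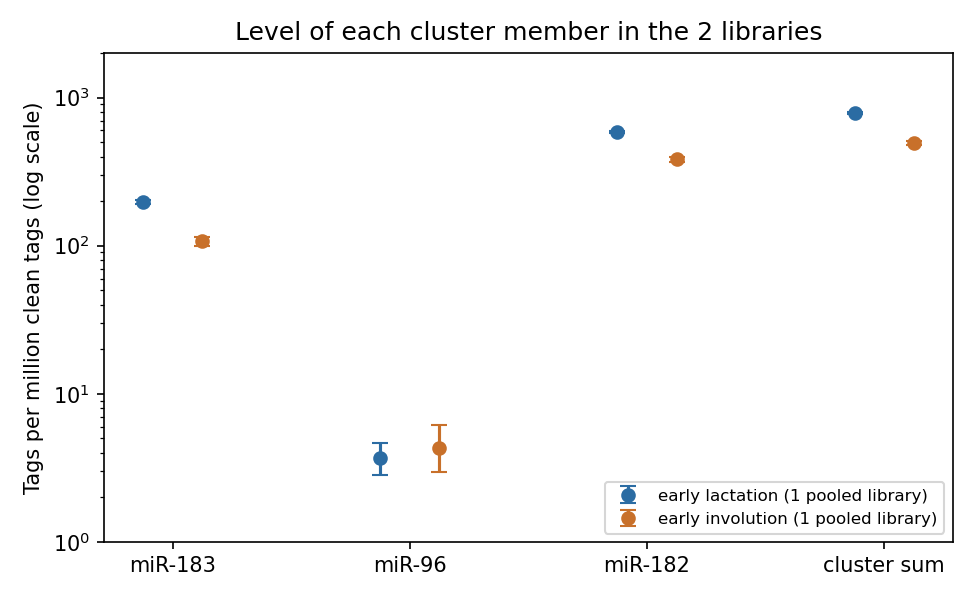
Level of each member and of their sum in TPM, on a log axis, with 1 point per pooled library and 95% Poisson intervals for counting error. The points for miR-183 and miR-182 are lower in involution (107 against 197 TPM, and 383 against 585 TPM), and those for miR-96 overlap.

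The question the design poses is how the gland's miRNAs differ between a secreting and a regressing gland. With scaling to all clean tags miR-183 was 1.84-fold lower in involution (1.70 to 1.99), a log2 ratio of -0.88. For miR-182 it was 1.53-fold (1.47 to 1.59), a log2 ratio of -0.61, and for the sum of the cluster 1.59-fold (1.53 to 1.65). The log2 ratio of miR-96 was 0.24 (-0.41 to 0.87), on both sides of equality. With 1 library per group there is no test between the stages.

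A change was called at 2-fold or more, with the whole interval beyond equality and at least 10 TPM in a library. Of the members, miR-183 and miR-182 reached that level and 0 were called, while miR-96 stayed below it. A tag family entered the background by reaching 10 TPM in either library, so some entered only through the library where they were high. The shares and ranks that follow are therefore a description. Of the 957 tag families 37.1% were called higher in involution and 4.39% lower, and the median family had a log2 ratio of 0.58. Against that spread, 56 of the 957 families had a lower ratio than miR-183 and 100 had a lower ratio than miR-182. Among the 266 families of at least 100 TPM, 23 and 33 lay below them, 5.64% were called lower and 36.8% higher. These families are unnamed, include fragments of longer RNAs, and can hold the same miRNA more than once. Some resemble 5' adaptor products with 0 tags in lactation, such as 1 with 207 tags in involution, and these count as higher.

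The scaling decided whether the pair passed the 2-fold limit. Both sets of factors below were computed from the same 957 families, some of which entered only through the library where they were high. Their shifts are therefore not independent of that background. With median-of-ratios factors, which moved every log2 ratio by -0.54, miR-183 was 2.68-fold lower and miR-182 2.23-fold, where 28.1% of families were called higher and 13.6% lower. With edgeR's TMM factors, a shift of -0.59, they were 2.77-fold and 2.30-fold lower, with 27.3% of families called higher and 14.7% lower. The log2 ratio of miR-96 took the other sign under both, at ratios of 0.812 and 0.786. In bulk tissue fewer cells that make a miRNA and less of it per cell cannot be told apart.

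The proportions within the cluster, which do not depend on the scaling, differed between the libraries. There were 2.97 tags of miR-182 for each tag of miR-183 in lactation (2.86 to 3.08) and 3.57 in involution (3.30 to 3.87). The second ratio was 1.20 times the first (1.10 to 1.31), so miR-183 was lower by more than miR-182. With identical tags alone the same ratio was 3.94 in lactation and 7.07 in involution. Relative to miR-96, miR-182 stood at 160 tags to 1 in lactation (125 to 207) and 88.3 to 1 in involution (62.4 to 129). Likewise miR-183 went from 53.8 (42.2 to 69.8) to 24.8 (17.4 to 36.4) tags per tag of miR-96. The share of miR-96 in the cluster was 0.466% in lactation (0.361 to 0.593%) and 0.877% in involution (0.600 to 1.24%). Whether these shifts exceed the spread between goats is unknown.

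The members differed sharply in where their tags began. A tag that lacks the first base has its seed moved by 1 position, so this start can change the predicted targets. The original and the moved seed still overlap in all but 1 base, so those targets need not be distinct. Of the miR-183 tags 33.9% began at base 2 in lactation (32.3 to 35.5%, 1205 of 3554 tags) and 33.6% in involution (30.3 to 37.0%, 266 of 792 tags). Nearly all the others began at base 1. For miR-182 the share from base 2 was 0.209% in lactation (0.131 to 0.316%, 22 of 10542 tags) and 0.0708% in involution (0.00857 to 0.255%, 2 of 2826 tags). For miR-96 it was 2 of 66 tags in lactation and 0 of 32 in involution, the latter allowing a share of up to 10.9% by the exact interval.

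The odds that a tag began after base 1 were 216 times higher for miR-183 than for miR-182 in lactation (145 to 336) and 713 times higher in involution (194 to 5934). Between the stages no difference in the start of miR-183 was detectable at this depth, the odds ratio of involution to lactation being 0.983 (0.832 to 1.16). Among 27 other named miRNAs with at least 500 tags in each library, the median share that began after base 1 was 0.340% in lactation and 0.737% in involution. The highest was miR-142-3p, a leukocyte miRNA, at 18.6% and 41.1%, so 0 of the 27 lay above miR-183 in lactation and 1 in involution.

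**Figure D2:**
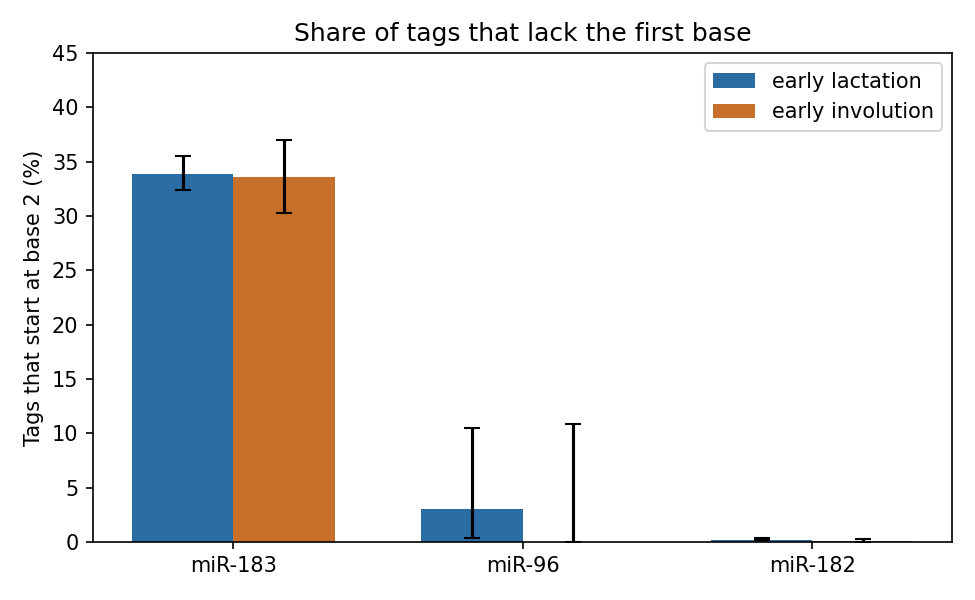
Share of each member's tags that began at base 2, in percent, for both libraries, with exact 95% intervals for counting error. The bars of miR-183 stand at 33.9% and 33.6%, against 0.209% and 0.0708% for miR-182, and miR-96 rests on 66 and 32 tags.

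Shown with the base-1 form for comparison, the most abundant miR-183 tag from base 2 has the seed letters TGGCACT in place of ATGGCAC.
miR-183 from base 1: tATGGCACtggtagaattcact
miR-183 from base 2: aTGGCACTggtagaattcactg
No other tag family of 10 TPM or more, among 1843 of any length, had the first 6 bases of this shifted seed. Taken as a miRNA of its own, the base-2 form stood at 66.8 TPM in lactation (63.1 to 70.7) and 36.0 TPM in involution (31.8 to 40.6). It was thus more abundant than all miR-96 at either stage. The base-2 form was 1.86-fold lower in involution (1.62 to 2.13) and the base-1 form 1.83-fold (1.66 to 2.01), which overlap.

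The 3' end of miR-183 differed between the stages, and in the opposite direction to that of miR-182. Tags that ran past the mature end were 40.8% of miR-183 in lactation (39.2 to 42.5%) and 55.4% in involution (51.9 to 58.9%), an odds ratio of 1.80 (1.54 to 2.11). Tags that stopped at the mature end were 42.7% in lactation and 28.8% in involution. Shorter tags were 16.5% (15.3 to 17.8%) and 15.8% (13.3 to 18.5%), which overlap. In level all 3 classes were lower in involution. Tags at the mature end went from 84.1 to 30.9 TPM, 2.72-fold lower (2.37 to 3.14), and longer tags from 80.5 to 59.4 TPM, 1.35-fold lower (1.22 to 1.51).

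For miR-182 the longer tags were 13.7% in lactation (13.1 to 14.4%) and 9.31% in involution (8.26 to 10.4%), an odds ratio of 0.646 (0.560 to 0.743). Tags at its mature end were 44.3% (43.3 to 45.2%) and 49.3% (47.5 to 51.2%), and shorter tags 42.0% (41.1 to 43.0%) and 41.4% (39.5 to 43.2%). Compared with miR-183, then, miR-182 ended more often short of its mature end and less often beyond it at both stages. Over the 27 other miRNAs the change in the share of longer tags, involution minus lactation, ranged from -23.5 to 28.6 percentage points with a median of 4.71. It was 14.6 points for miR-183, with 2 of the 27 above it, and -4.40 for miR-182, with 24 above it.

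**Figure D3:**
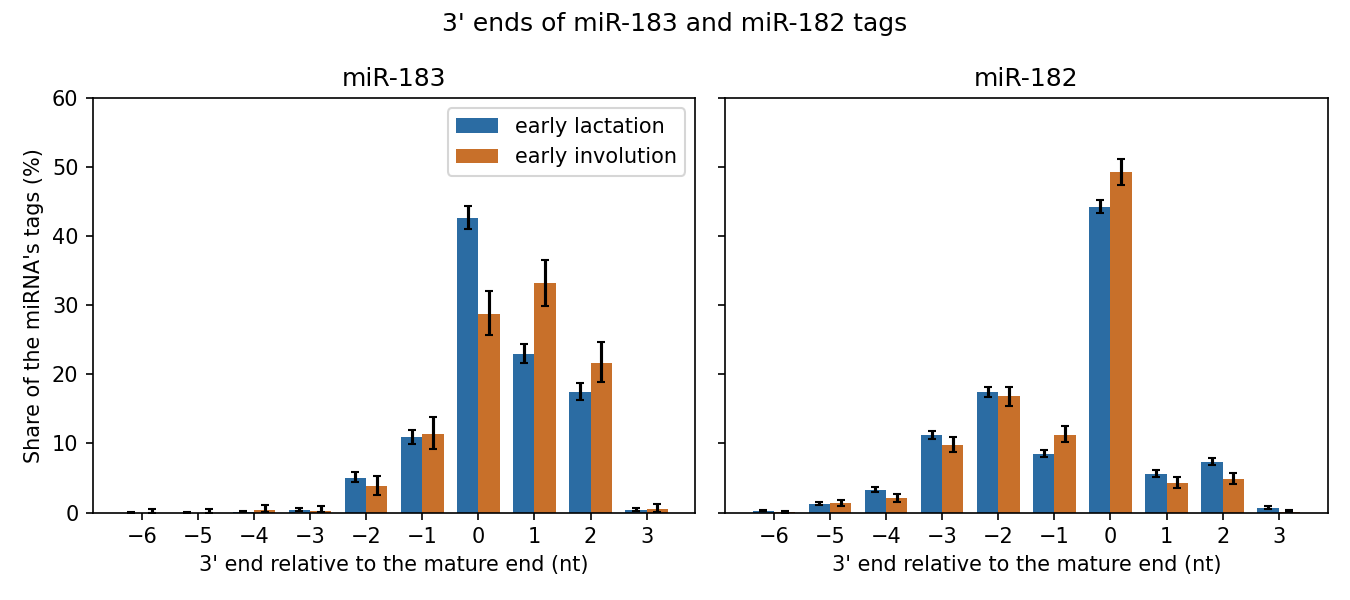
Position of the 3' end of miR-183 tags and of miR-182 tags relative to the mature end, in nt, as a percentage of that miRNA's tags in each library, with exact 95% intervals. Tags of miR-183 beyond position 0 add up to 40.8% in lactation and 55.4% in involution, and those of miR-182 to 13.7% and 9.31%.

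The added bases were few in kind. In miR-183 a single G was added in 21.98% of tags in lactation and 32.4% in involution, GA in 12.6% and 15.9%, and GT in 4.76% and 5.81%. In miR-182 a single G was added in 5.44% and 4.25% of tags, and GG in 6.54% and 4.18%. A lone A, the base often added after processing, was on 0.703% of miR-183 tags in lactation and 0.505% in involution, not counting the A of GA. GA and GT differ at the same position, so a single precursor sequence could not encode both. No precursor sequence was used here, so which of the added bases are encoded cannot be told.

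The start and the end of miR-183 went together. Among tags from base 1, 29.3% ran past the mature end in lactation (27.5 to 31.2%) and 41.8% in involution (37.6 to 46.2%). Among tags from base 2 the shares were 63.3% (60.5 to 66.0%) and 82.3% (77.2 to 86.7%). The odds of a longer 3' end were thus 4.16 times higher for the base-2 form in lactation (3.58 to 4.84) and 6.47 times higher in involution (4.47 to 9.49). The mean tag length was nearly equal for both forms, at 22.1 and 21.9 nt in lactation and 22.2 and 22.2 nt in involution. In both forms the share past the mature end was larger in the involution library, while the level of such tags was lower, at 38.2 and 29.8 TPM from base 1 and 42.3 and 29.7 TPM from base 2.

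**Figure D4:**
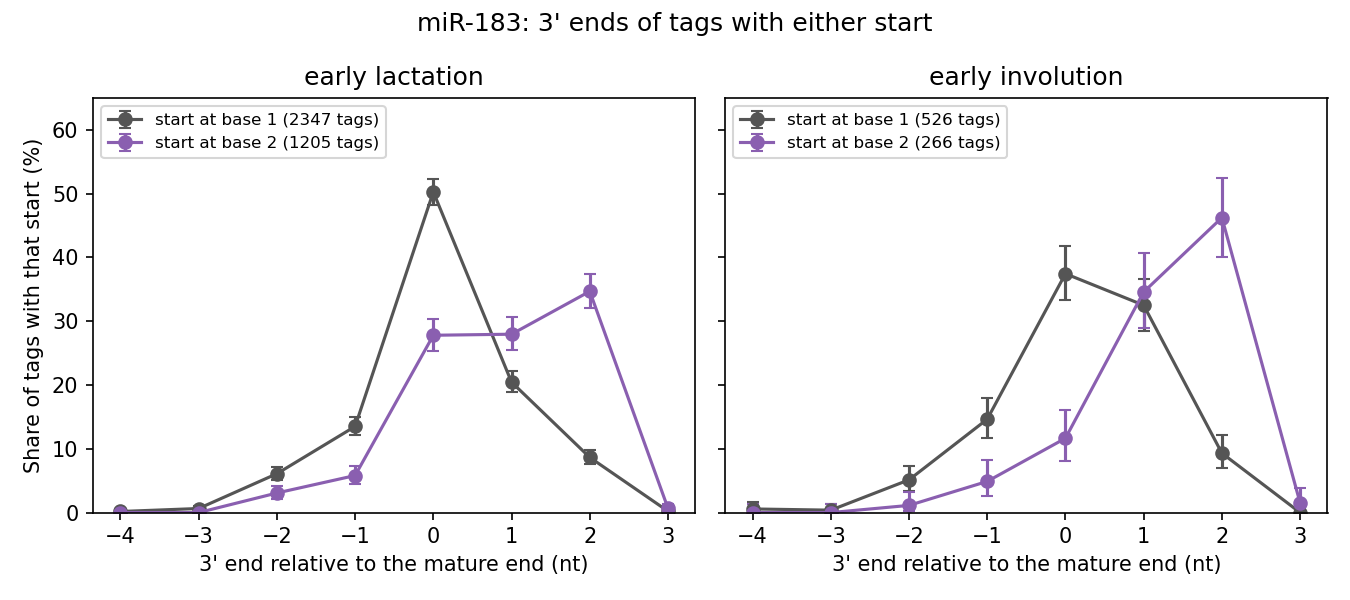
3' ends of miR-183 tags from base 1 and from base 2 relative to the mature end, in nt, as a percentage of tags with that start, 1 panel per library, with exact 95% intervals. Tags from base 1 are commonest at the mature end (50.3% in lactation, 37.5% in involution), and tags from base 2 at 2 nt beyond it (34.7% and 46.2%).

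Single end variants of miR-183 therefore differed in their ratio between the stages. The 4 shown are the mature form, the form with 1 added G, and the base-2 tags that stop at the mature end or run 2 nt past it.
mature form: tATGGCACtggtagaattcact
with 1 added base: tATGGCACtggtagaattcactg
from base 2, mature end: aTGGCACTggtagaattcact
from base 2, 2 added bases: aTGGCACTggtagaattcactga
The mature form had 65.4 TPM in lactation and 26.7 TPM in involution, 2.45-fold lower (2.11 to 2.87), past the 2-fold limit. Counting identical tags alone, 8.35% of 599 families were called lower and 38.7% higher. The form with 1 added base had 25.1 and 22.6 TPM, 1.11-fold lower (0.926 to 1.33), which spans equality. From base 2, the tag that stops at the mature end had 18.6 and 4.20 TPM, 4.43-fold lower (3.06 to 6.62), whereas the tag with 2 added bases had 17.2 and 12.3 TPM, 1.40-fold lower (1.10 to 1.78). A count of the mature sequence alone would thus give another fold for miR-183 than a count of all its end variants.

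The end variants of miR-182 were spread mainly towards the 5' side of the mature end. The tags chosen show its span, from the mature form to the commonest shorter and the commonest longer tag.
mature form: tTTGGCAAtggtagaactcacact
commonest shorter form: tTTGGCAAtggtagaactcaca
commonest longer form: tTTGGCAAtggtagaactcacactgg
The mature form had 258 TPM in lactation and 188 TPM in involution, 1.37-fold lower (1.29 to 1.45). The 22-nt form, which lacks 2 bases, had 102 and 64.3 TPM, 1.58-fold lower (1.43 to 1.75). The 26-nt form had 38.2 and 15.98 TPM, 2.39-fold lower (1.96 to 2.93). The longest of the forms shown was thus the one with the greatest difference, whereas the longer miR-183 tags shown differed less than those at the mature end. Fold did not follow length throughout in miR-182. Its 21-nt form was 1.75-fold lower and its 23-nt form 1.15-fold.

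For miR-96 the counts allow little more than a list of ends. Of its 66 lactation tags 35 were the mature form without its last base, 20 were the complete mature form and 8 lacked 2 bases. Of its 32 involution tags the numbers were 6, 18 and 7. The odds of a shorter tag were 0.342 times those of lactation (0.129 to 0.885), a difference beyond counting error but on few tags. Tags longer than the mature form numbered 0 in both libraries. Outside the rule, 5 tags in lactation and 3 in involution carried the change C22A at their last base.

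A relative of miR-96 lies outside the cluster. The tag family of miR-1271, which shares the complete seed of miR-96 and 6 of the 7 seed bases of miR-182, is shown for that reason.
miR-1271: cTTGGCACctagtaagtactca
Its level was 3.33 TPM in lactation (60 tags) and 13.1 TPM in involution (97 tags), 3.95 times the lactation level (2.83 to 5.54). It reached 10 TPM in the involution library alone, where it was high, so this ratio is a description, and 37.1% of all families were called higher. It was the only other family of 10 TPM or more, of 1843, with bases 2 to 7 of miR-96 or miR-182. For miR-183 there were 0.

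With scaling to all clean tags, 3 of 8 epithelial miRNAs were called higher, 0 lower and 5 were not called. The share called higher was near that of all 957 families, of which 37.1% were higher and 4.39% lower. The median log2 ratio of the 8 was 0.45 beside 0.58. The miR-200 family holds epithelial cells in their state, and its most abundant member, miR-200c, had 15212 TPM in lactation and 11255 TPM in involution, a log2 ratio of -0.43. Its neighbours in the list differed in direction with this scaling: miR-429 had a log2 ratio of -0.40, miR-200b 0.34, miR-200a 0.55 and miR-141 1.38. Median-of-ratios and TMM factors move each log2 ratio by -0.54 and -0.59. The TMM shift exceeds in size the values of miR-200b and miR-200a, whose direction thus depends on the scaling. Calls in the lists were not recomputed with these factors. The keratinocyte miRNA miR-203 had -0.78 on 636 and 152 tags. Called higher were miR-141, miR-205, a miRNA of basal cells, at 5.59 times (5.31 to 5.89) and miR-375, best known from endocrine cells, at 24.2 times (23.4 to 25.01) their lactation levels. The log2 ratio of miR-183 was below those of all 8, and that of miR-182 was below those of 7, miR-203 being the exception, whose interval (-1.04 to -0.52) holds both members.

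**Figure D5:**
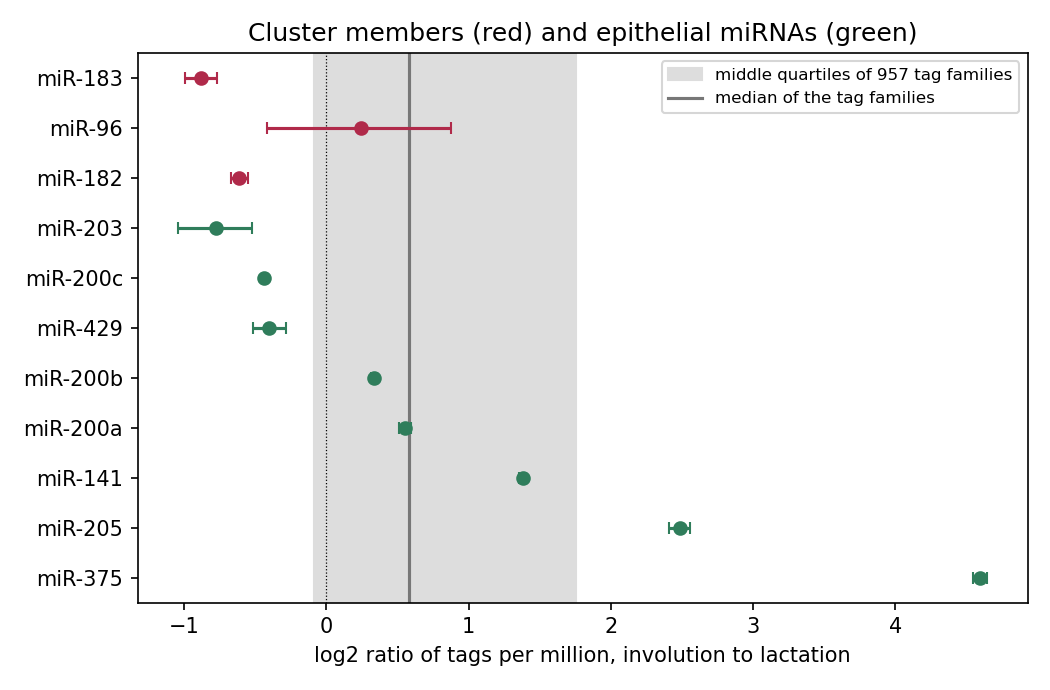
Log2 ratio of TPM, involution to lactation, for the 3 members (red) and 8 epithelial miRNAs (green), with 95% intervals for counting error. The grey band spans the middle quartiles (-0.08 to 1.75) of 957 tag families that reached 10 TPM in either library. The grey line is their median of 0.58, and miR-183 at -0.88 and miR-182 at -0.61 lie left of the band.

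Markers of other cells are given with the same scaling to all clean tags, beside the 37.1% of all families called higher and 4.39% called lower. The 6 leukocyte miRNAs summed to 1383 TPM in lactation and 1676 TPM in involution, with 5 called higher and 1 not called, miR-155. With 1152 TPM in lactation and 648 TPM in involution miR-155 dominates the lactation sum, so the sum hides the rise of the others. It is also the one with the nearest ratio to miR-183. The 3 erythroid miRNAs summed to 923 and 3136 TPM, with 2 higher. The 7 stromal miRNAs summed to 315517 and 324295 TPM, with 2 higher, and nearly all of that was miR-143, at 309788 and 318808 TPM. The 2 endothelial miRNAs summed to 7584 and 7085 TPM, with 1 higher. The epithelial list summed to 20668 and 25758 TPM, so no list was at 0 as a whole. The part of cell composition in the members' ratios was not tested.

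Other miRNAs that are studied with the cluster went in both directions with scaling to all clean tags. Of these 6, 2 were called higher, 1 lower and 3 not called, beside 37.1% higher and 4.39% lower among all families. The median log2 ratio of the 6 was 0.27. Of these miR-27a, which represses FOXO1 together with miR-96 and miR-182 in breast cancer cells, was 2.45 times higher in involution (2.38 to 2.51). Its relative miR-27b had a log2 ratio of 0.42. The milk miRNA miR-148a was called lower, at a log2 ratio of -1.18. The 2 members of the miR-30 family went opposite ways: miR-30a was at -0.97, and miR-30b, the other one called higher, was at 3.77. Over 2 libraries, and among 17 named miRNAs of at least 1000 TPM, the log2 ratios nearest to miR-183 were those of miR-155 (-0.83), miR-30a (-0.97) and miR-10b (-0.60). Nearest to miR-182 were miR-10b, miR-200c (-0.43) and miR-155, and to miR-96 miR-200b (0.34), miR-21 (0.12) and miR-27b. With only 2 libraries this likeness is 1 number per miRNA.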

How the data were processed

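What the authors deposited is, for every distinct clean tag, its raw count and length. RNA was size-selected at 18 to 30 nt, per the labels' protocols. A deposited readme says that reads of low quality, 5' adaptor products, very short tags and polyA were discarded and the 3' adaptor trimmed. It gives the clean tags as 18 to 30 nt, but the files run to 44 nt. Some tag families of the involution library still resembled 5' adaptor products. No aligner or genome build is named in the labels or headers. Totals were 18031615 tags in lactation and 7385833 in involution, which sets the precision of every interval.

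No miRNA sequence table was used here. Each mature sequence was read from the tags as the most abundant one, over both libraries, with the known start bases (first base, seed and length for members, a 7-base word and where needed a second short word for 35 other miRNAs). Names therefore rest on general knowledge. Tags that fitted more than 1 of these miRNAs were set aside. The planned set of reference miRNAs was replaced by families built from the tags under the same rule, from the most abundant down. A family within 2 mismatches or a shift of 3 nt of another at least 50 times as abundant was left out as its variant. Variants closer in abundance stayed as families of their own, so the families are not all distinct RNAs.

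Intervals are exact Poisson (levels), Clopper-Pearson (shares), conditional Clopper-Pearson (ratios) and conditional odds ratios. The miRNAs named were the members, their seed relatives, listed markers and the nearest in ratio, and miR-23a and miR-23b were added after their values were seen. Members and lists were chosen with earlier results of these data known. The code was tested on simulated data. Python 3.11.15, numpy 2.4.6, scipy 1.17.1, matplotlib 3.10.9, R 4.3.3 and edgeR 4.0.16 (TMM factors only) were used. Alternatives covered scaling, assignment, depth and the level limit. The 2 filtering logs were not used, since no label ties them to a library.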

Additional observations from a re-analysis of the deposited data

Results flagged for a closer look

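Perfectly matching tags outside the counting rule, by their start, their length or a join to another miRNA, are given where more than 3 were present, the number a count of 0 allows. With 1 library per group no sample could be compared with others of its group. In lactation 21 tags joined miR-182 to another miRNA (1.16 TPM), 16 of them to miR-23a and 5 to miR-23b, against 1 in involution (0.135 TPM). In 20 of the 21 miR-182 was the 3' part. Neither partner was abundant in lactation, at 104 TPM for miR-23a and 113 TPM for miR-23b, and both were higher in involution, at 984 and 704 TPM. The commonest joined tag, with 4 copies, is shown with miR-182 in capitals.
miR-23a joined to miR-182: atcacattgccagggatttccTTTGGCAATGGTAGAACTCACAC
For miR-183 there were 2 joined tags in lactation and 0 in involution, and for miR-96 0 in both.

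Tags of miR-182 that began at base 6 numbered 22 in involution (2.98 TPM) and 4 in lactation (0.222 TPM), although the lactation library was 2.44 times deeper. Tags of miR-182 from base 1 that ran over 3 nt past the mature end numbered 13 in lactation and 0 in involution. For miR-183 there were 4 such tags in lactation, and 7 tags that began 1 or 2 bases before base 1. Tags with 1 mismatch inside the sequence numbered 221 for miR-182 in lactation and 33 in involution, or 2.10% and 1.17% of the tags in the rule, and 41 and 13 for miR-183, or 1.15% and 1.64%. With the mismatch at the last base they numbered 164 and 34 for miR-182 and 20 and 6 for miR-183. The cause of these differences was not tested.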

How the results depend on the processing

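No paired analysis was possible because each stage has 1 library, and for the same reason no replicate could be left out. The level ratios of miR-183, miR-182 and the cluster sum stayed below 1 in all 10 alternatives run. Under the factors from median of ratios and TMM they were 0.373 and 0.361 for miR-183, 0.449 and 0.435 for miR-182, and 0.432 and 0.418 for the sum. With identical tags alone they were 0.408, 0.730 and 0.670, and that of miR-96 was 2.20 (1.10 to 4.37), on 20 and 18 tags. Scaled to the tags in families, a choice made after seeing the data, the sum stood at 0.655. For families called higher, 355 in the main count, the number was 98 at 100 TPM or more, 232 with identical tags and 846 at 3 TPM or more, the last also chosen after seeing the data. For families called lower, 42 in the main count, it was 130 under median of ratios, 141 under TMM, 15 at 100 TPM and 95 at 3 TPM.

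Counting only tags from base 1 left the level ratio of miR-183 at 0.547 but, by taking tags from miR-183, moved its proportions. Tags of miR-182 per tag of miR-183 became 4.48 in lactation and 5.37 in involution, and tags of miR-96 per tag of miR-183 0.0273 and 0.0608. The shorter tags of miR-183 became 20.4% and 20.7%, and its longer tags, a comparison likewise added after seeing the data, 29.3% and 41.8%. With identical tags alone the ratio of miR-182 to miR-183 was 3.94 and 7.07 at the 2 stages. In that setting miR-96 had 0.0914 tags per tag of miR-183 in involution, and miR-182 had 233 per tag of miR-96 in lactation. With tags of 20 nt or more the shorter share of miR-183 in lactation was 15.2%. Not run were the match of added bases to a precursor, for want of its sequence, and families with no limit on level, in whose place 3 TPM was used. Depth limits miR-96, and the starts of miR-182, which rest on 2 involution tags after base 1.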
